A study of Homo sapiens with 12 samples.

Results

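Refeeding of starved RPE-1 cells in the presence of C646 was compared with starvation alone, in 3 refed and 3 starved libraries out of the 12 in the series. The comparison covered all 15263 genes that passed a filter on low counts out of 43481 in the tables. RPE-1 is a human line of established cultured cells that came from the pigment epithelium of the retina. The starved group had been kept without fetal calf serum (FCS) and without glucose for 24 h. The C646 group had the same starvation and then 4 h in RPMI medium with 10% FCS and 5 g/l glucose containing 10 µM C646. A solvent group (DMSO) and a group with 100 µM dimethyl amiloride (DMA, an inhibitor of sodium-proton exchange) were refed in the same way, with 3 libraries each. The starved group is listed with 0 h of stimulation and the C646 group with 4 h. The labels do not say whether the starved cells received DMSO or were given a medium change. Refeeding, the compound, the handling and the time therefore differ together between the C646 and the starved group. The labels also do not say whether replicates came from separate cultures, and p-values then measure only the spread between these libraries.

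C646 is a small molecule known as an inhibitor of p300 (gene EP300) and CBP (gene CREBBP), closely related acetyltransferases. These enzymes acetylate histones at enhancers and promoters, as well as many transcription factors, and act as coactivators for genes induced by growth factors, stress and the cell cycle. Cells without glucose and serum raise the unfolded protein response of the endoplasmic reticulum and the ATF4 response to amino acid or secretory stress, and stop dividing. On refeeding, growth factor signalling, glucose metabolism and ribosome production resume before DNA synthesis. The question of the comparison is which of these changes are seen when C646 is present during refeeding. Acetylation was not measured here, so the degree of p300 and CBP inhibition in these cells is not known.

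The libraries held 14910516 to 28968510 expected counts. Of these, 14910516 to 23950322 came from starved and 21929453 to 24784194 from C646 cells. Mitochondrial transcripts made up 1.67% to 4.14% of a library, highest in starved library 3. In a principal component analysis the first component (31.1% of the variance) separated starved from refed libraries, the second (14.6%) separated the libraries numbered 3 from the others in every group, and the third (13.4%) set solvent library 1 apart. Of 12 marker genes of differentiated pigment epithelium, 7 were below 1 CPM (a count as a share of its library, times 1000000) in every library, including RPE65, RLBP1 and TYR, and TTR was at 0 in all. KRT8 (220 to 557 CPM) and KRT18 (367 to 685 CPM), keratins of simple epithelia, were present throughout, and so was the transcription factor gene MITF (17.3 to 55.3 CPM). These keratins belong to a list of 11 epithelial and mesenchymal markers. Of that list the epithelial genes CDH1 (0 to 0.239 CPM), EPCAM (0 to 0.0806 CPM) and KRT19 (0 to 0.297 CPM) were below 1 CPM in every library. The mesenchymal genes VIM (4020 to 7030 CPM) and CDH2 (266 to 361 CPM) were present throughout. All 7 blood cell markers were below 1 CPM, with summed levels of 0.308 to 0.711 CPM in starved and 0.58 to 0.807 CPM in C646 libraries. The summed levels of 5 endothelial markers were 0.962 to 1.57 CPM in starved and 1.77 to 4.29 CPM in C646 libraries, and those of 5 neuronal and glial markers, nearly all from SYT1, were 84.3 to 88.2 and 33.4 to 43.6 CPM. The part of these markers in the results was not tested.

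Refeeding with C646 changed 3749 genes against starvation at an adjusted p under 0.05 (edgeR quasi-likelihood test, Benjamini-Hochberg), which is 24.6% of the genes tested. Of these, 1967 (12.9% of the genes tested) were higher and 1782 (11.7%) lower than in starved cells. With a change of at least 1 on the log2 scale, 753 were higher and 615 lower. All log2 fold changes are given with their standard errors, and positive values mean higher with C646 than in starved cells unless another pair is named. The changes are relative to the bulk of the transcriptome. The median log2 fold change over all genes was 0.011, and it became 0.727 when libraries were scaled on added spike-in RNA, with 97.6% of 5220 called genes then higher, against 52.5% without it. A fall smaller than this shift is a fall relative to other genes and not per unit of spike-in. The size of the shift is uncertain, because the spike-in share of counts varied within groups. It was 0.872% to 1.28% in starved, 0.546% to 0.829% in C646 and 0.527% to 1.06% in solvent libraries. In bulk RNA, fewer cells of a kind and less RNA per cell cannot be told apart.

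**Figure D1:**
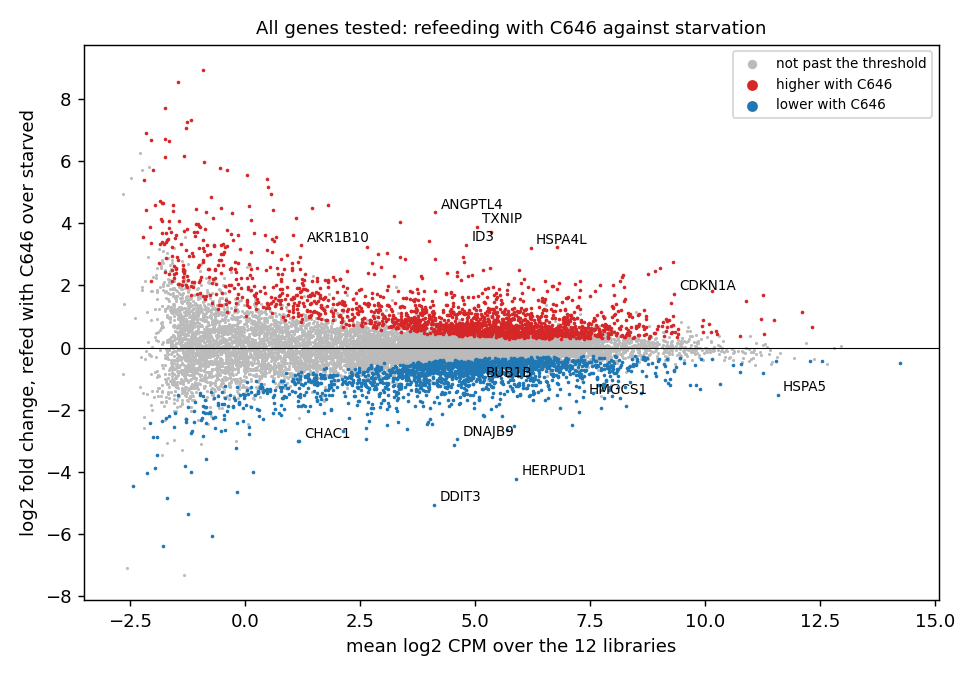
Log2 fold change of each of the 15263 genes tested in refed C646 cells over starved cells (vertical axis) against its mean log2 CPM over the 12 libraries (horizontal axis). Red and blue points passed an adjusted p of 0.05 in the higher and lower direction, and the labelled stress genes HERPUD1 and DDIT3 lie at -4.21 and -5.05.

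ANGPTL4, IL7R and TXNIP had the largest rises among genes with a mean log2 CPM of at least 2. ANGPTL4, a secreted inhibitor of lipoprotein lipase, was at 1.63, 1.17 and 3.92 CPM in the 3 starved libraries and at 70.4, 26.5 and 31.9 CPM in the 3 C646 libraries. The groups were far apart, and ANGPTL4 rose 20.3-fold (log2 4.35 ± 0.67, adjusted p = 0.00086). With solvent it was at 34.4, 20.2 and 65.7 CPM, a range that overlaps that with C646. IL7R, the interleukin 7 receptor, rose from 0.753 to 3.26 CPM in starved libraries to 23.1 to 41.7 CPM with C646 (log2 4.04 ± 0.66, adjusted p = 0.0012). IL27RA, a subunit of the interleukin 27 receptor, rose by 3.04 ± 0.30 from 1.46 to 2.64 CPM to 13.4 to 19.2 CPM. TXNIP, which restrains glucose uptake and is switched on by glucose through the sensor MondoA, was at 8.27, 7.49 and 9.47 CPM in starved libraries and at 89.5, 58.6 and 225 CPM with C646. Its rise was 3.89 ± 0.63 (adjusted p = 0.0012). The solvent libraries held 36.6, 25.9 and 80.7 CPM, lower than the C646 library of the same number in each case. The difference between C646 and solvent (1.38 ± 0.56) had an adjusted p of 0.24, and of 0.011 with the replicate number as a block.

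ID3, an inhibitor of helix-loop-helix transcription factors and a direct BMP target, rose 9.9-fold, from 4.09, 5.19 and 5.27 CPM to 46.1, 40.9 and 56.7 CPM (log2 3.31 ± 0.24, adjusted p = 3.2e-06). Its solvent libraries (28.2, 36.1 and 51.5 CPM) overlapped those with C646. SLC43A2 and TBX2, also among the largest rises, were near the starved level with solvent. SLC43A2, a transporter of large neutral amino acids, was at 2.2, 3.81 and 3.99 CPM in starved, 2.25, 3.33 and 5.48 CPM in solvent and 37.9, 21.6 and 33.7 CPM in C646 libraries. All C646 libraries lay above all others, and the rise over starvation was 9.37-fold (log2 3.23 ± 0.39, adjusted p = 0.00013). TBX2, a T-box transcriptional repressor, rose by 3.00 ± 0.44, from 2.42 to 4.18 CPM to 13.5 to 43.2 CPM, and had 2.91 to 5.27 CPM with solvent. RNF150, a gene with a RING finger domain, rose by 2.91 ± 0.37, and ABHD3, a phospholipase, by 2.84 ± 0.24. TRIML2 rose by 2.84 ± 0.46. IFITM10 (3.44 ± 0.77) was counted with uncertainty, because 22.2% of its exon sequence overlaps another gene and the strand setting of the counting is not given in the sources used here. IGFBP5 (2.92 ± 0.80, adjusted p = 0.02), an IGF binding protein, was no longer past the threshold without starved library 1 (0.057) or 3 (0.063) or C646 library 1 (0.063) or 2 (0.054).

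DDIT3 and HERPUD1 had the largest falls by the same rule. DDIT3, the stress factor CHOP, fell 33.2-fold, from 227, 264 and 311 CPM to 5.51, 7.01 and 11.6 CPM (log2 -5.05 ± 0.31, adjusted p = 1.7e-06). Its counts are uncertain, since 39.6% of its exon sequence overlaps another gene. BMF, a BH3-only promoter of apoptosis, fell by 2.64 ± 0.38 on the log2 scale, from 183 to 206 CPM to 11.4 to 45.3 CPM. JMY, a nucleator of actin filaments and p53 cofactor, fell by 2.44 ± 0.24, and DHRS3, a retinaldehyde reductase, by 2.48 ± 0.51. ADAMTS15, a secreted metalloprotease, fell by 2.94 ± 0.32, from 25.4 to 38.8 CPM to 3.67 to 5.22 CPM. TCP11L2 (-2.67 ± 0.29), LURAP1L (-2.62 ± 0.25), AZIN2 (-2.50 ± 0.46), a regulator of polyamine synthesis, and FICD (-2.40 ± 0.24), which modifies the chaperone BiP, also fell. For PLAU, the urokinase protease (-2.47 ± 0.46), 31.1% of the exon sequence overlaps another gene.

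**Figure D2:**
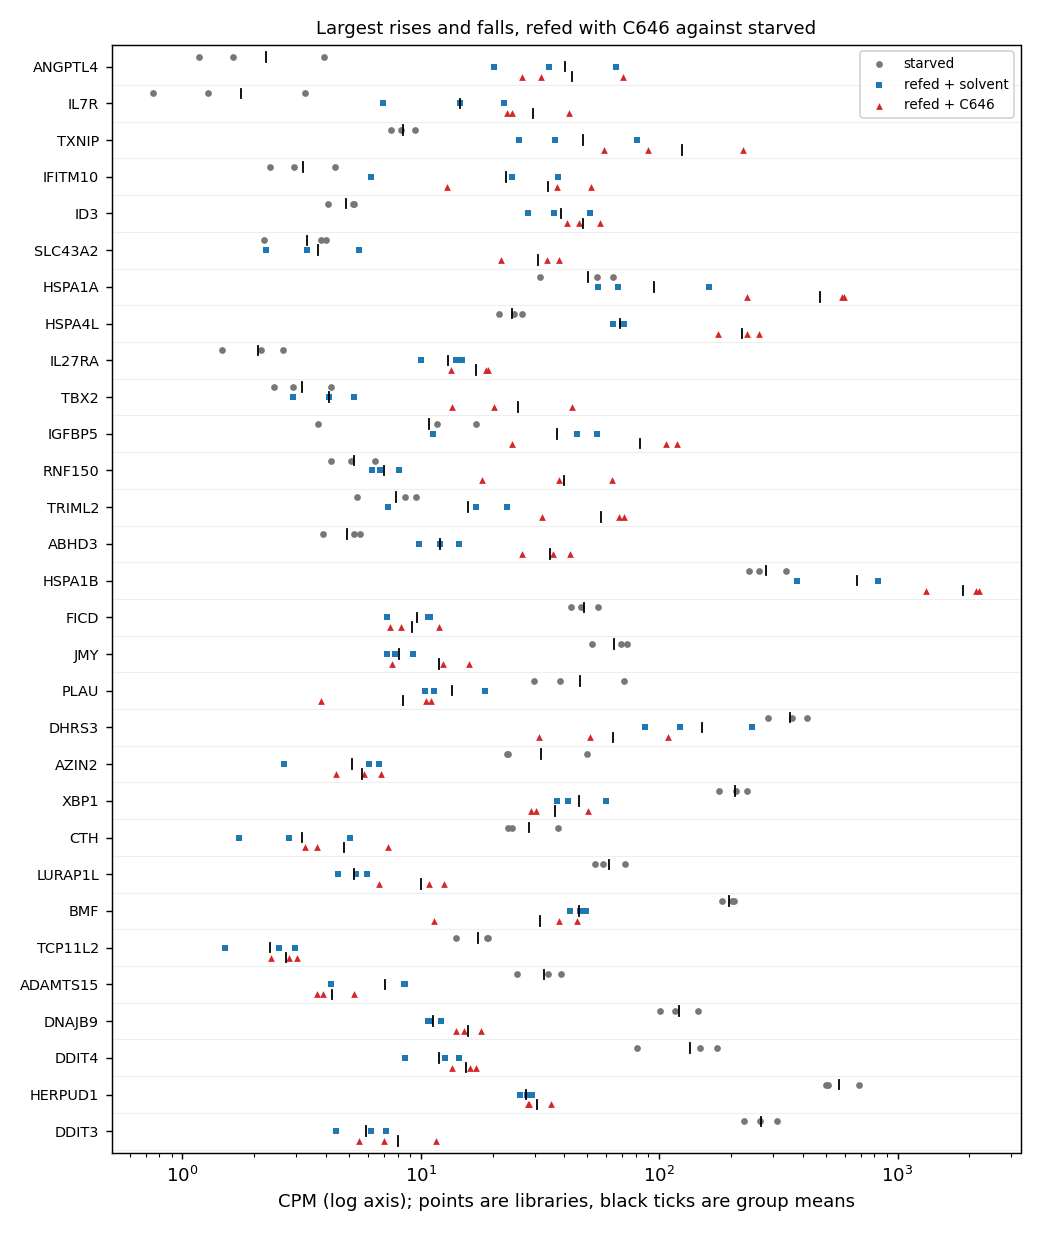
CPM on a log axis of the 15 largest rises (top) and 15 largest falls (bottom) in refed C646 against starved cells, among genes with a mean log2 CPM of at least 2. Points are the 3 libraries of each group and black ticks the group means. The starved and C646 points do not overlap for any of the 30 genes, a condition of their choice, while the solvent points of SLC43A2 and TBX2 lie with the starved ones.

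The unfolded protein response fell with C646 present. It relies on the sensors IRE1, PERK and ATF6, which raise chaperones and degradation factors of the endoplasmic reticulum through the factors XBP1, ATF4 and cleaved ATF6. Of 24 genes tested, 0 were higher and 16 lower, with a median of -0.79 beside 0.011 over all genes. HERPUD1, which helps to clear misfolded proteins from the endoplasmic reticulum, was at 690, 500 and 513 CPM in starved and at 28.3, 28.5 and 35.3 CPM in C646 libraries. It fell 18.5-fold (log2 -4.21 ± 0.16, adjusted p = 6.1e-09), and the solvent libraries held 26, 29.2 and 28 CPM. XBP1 fell by 2.51 ± 0.27 on the log2 scale, from 233, 179 and 210 CPM to 28.9, 30.3 and 50.2 CPM. DNAJB9, a cochaperone of BiP, fell by 2.94 ± 0.24. HSPA5, BiP itself and the most abundant member, went from 9593, 5365 and 7341 CPM to 1938, 1940 and 3937 CPM. This was a fall of 1.51 ± 0.35 (adjusted p = 0.0082). The sensor gene ATF6 and the translocon gene SEC61B, chosen after their values were seen as members near or above 0, stood at 0.02 and 0.27 and did not pass. With solvent, 0 members were higher and 18 lower (24.3% of all genes were called in that comparison), with a median of -0.87. In C646 against solvent, where 1.21% of all genes were called, 0 of 24 passed by edgeR (1 at an unadjusted p under 0.05, and 1 by DESeq2), and HERPUD1 differed by 0.15 ± 0.14 and HSPA5 by 0.16 ± 0.34. The solvent and C646 comparisons share the starved libraries, so only the direct comparison bears on a difference between them. With spike-in scaling the median was -0.07, and 4 members were lower and 1 higher.

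The ATF4 and amino acid response moved the same way. ATF4 is translated when amino acids are short or PERK is active, and it raises amino acid synthesis, transport and tRNA charging genes. Of 26 members tested, 16 were lower and 1 higher, with a median of -0.96. CHAC1, a glutathione-degrading enzyme, went from 23, 13.3 and 14.2 CPM to 1.45, 1.65 and 3.2 CPM, a fall of 3.01 ± 0.41 (adjusted p = 0.00025). Its solvent libraries were at 0.632, 0.708 and 1.66 CPM, a range that overlaps that with C646. CTH, the cystathionine gamma-lyase gene, fell by 2.59 ± 0.46 and DDIT4, an inhibitor of mTORC1, by 3.12 ± 0.27. The DDIT4 counts are uncertain (exon overlap of 41.2%). ATF3 (-0.99 ± 0.33, adjusted p = 0.047) and the asparagine synthetase gene ASNS (-0.52 ± 0.15, adjusted p = 0.025; uncertain, with 44.6% exon overlap) lost the call when single libraries were left out. For ATF3 these were starved library 1 (0.094), 2 (0.068) and 3 (0.12) and C646 library 1 (0.16) and 2 (0.12), and for ASNS starved library 1 (0.12) and C646 library 2 (0.085). ASNS turned to 0.22 with spike-in scaling. The member that rose was ATF5 (1.25 ± 0.18), a relative of ATF4, with 23.7% exon overlap. With solvent 21 members were lower and 1 higher, and in C646 against solvent 1 was higher and 0 lower. That member was SLC7A11, the cystine transporter, named here after its values were seen, at 1.83 in C646 against solvent and 0.66 against starvation, where it did not pass. The count was 0 without solvent library 1 or 2 or C646 library 1 or 3 and from the compared groups alone, and 3 without solvent library 3, with the block or by DESeq2.

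Promoter sequences of stress genes that fell are shown because the factors of this response are known to bind short elements near the start. The windows run from 250 bases before to 50 bases after a start of transcription and come from RefSeq (GRCh38.p14). Capitals mark the elements. HERPUD1 (chr16:56931892-56932191, + strand) holds ERSE-II (ATTGG and CCACG with 1 base of any kind between), beginning 117 bases before the start and a CARE match, TGATGNAA on the reverse strand, 176 bases before it. XBP1 (chr22:28800520-28800819, - strand) and HSPA5 (chr9:125241294-125241593, - strand) hold ERSE (CCAAT and CCACG with 9 bases of any kind between), beginning 52 and 66 bases before the start. CHAC1 (chr15:40953221-40953520, + strand) has a CARE match on the reverse strand 209 bases before its start.
HERPUD1: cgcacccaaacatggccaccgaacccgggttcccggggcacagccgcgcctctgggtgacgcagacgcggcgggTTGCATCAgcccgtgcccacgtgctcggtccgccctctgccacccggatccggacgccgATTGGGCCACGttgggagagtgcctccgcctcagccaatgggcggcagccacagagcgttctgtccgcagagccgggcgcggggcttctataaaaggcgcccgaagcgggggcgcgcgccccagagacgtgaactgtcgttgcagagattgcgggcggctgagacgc
XBP1: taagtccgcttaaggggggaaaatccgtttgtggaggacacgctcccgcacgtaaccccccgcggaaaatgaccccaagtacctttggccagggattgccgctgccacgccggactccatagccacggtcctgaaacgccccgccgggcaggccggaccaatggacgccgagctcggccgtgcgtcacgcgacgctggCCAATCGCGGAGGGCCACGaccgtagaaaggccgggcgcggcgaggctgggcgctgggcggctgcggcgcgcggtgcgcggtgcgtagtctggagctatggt
HSPA5: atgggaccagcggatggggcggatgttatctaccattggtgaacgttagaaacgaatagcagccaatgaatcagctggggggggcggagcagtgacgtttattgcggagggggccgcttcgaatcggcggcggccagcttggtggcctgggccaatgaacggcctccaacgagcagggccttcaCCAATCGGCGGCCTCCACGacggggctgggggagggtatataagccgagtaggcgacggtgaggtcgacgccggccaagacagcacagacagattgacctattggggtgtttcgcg
CHAC1: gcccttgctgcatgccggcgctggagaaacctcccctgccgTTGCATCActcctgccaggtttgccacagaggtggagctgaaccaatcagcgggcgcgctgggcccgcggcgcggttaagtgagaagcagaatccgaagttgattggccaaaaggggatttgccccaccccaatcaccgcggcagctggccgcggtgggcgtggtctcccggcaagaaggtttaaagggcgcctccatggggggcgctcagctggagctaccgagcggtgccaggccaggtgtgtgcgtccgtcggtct
Both strands were searched in 35116 windows of 300 bases. ERSE was found in 0.0769% of them and in 9 of the 30 windows of unfolded protein response genes (23 of 24 genes matched by symbol). ERSE-II was found in 0.0541% and in 3 of these 30. ERSE and ERSE-II share the bases CCACG. CARE was found in 3.62% of all windows and in 5 of 36 windows of the ATF4 list (23 of 28 genes matched). These matches describe letters in a window and not sites of binding.

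Genes that charge and supply amino acids followed in part. Of 20 cytosolic aminoacyl-tRNA synthetase genes 13 were lower and 2 higher (median -0.38). CARS, for cysteine, fell by 1.19 ± 0.17, AARS, for alanine, by 1.17 ± 0.20 and GARS, for glycine, by 0.93 ± 0.20. RARS (0.50 ± 0.13) and HARS (0.40 ± 0.10) passed in the other direction, RARS not without starved library 1 (0.056) or 2 (0.064) or C646 library 3 (0.053), and HARS not without C646 library 1 (0.059). The median turned to 0.36 with spike-in scaling, with 0 lower and 2 higher. In nucleotide synthesis, 6 of 21 genes were lower and 1 higher (median -0.20). The falls were led by the mitochondrial folate enzymes MTHFD2 (-2.07 ± 0.21, with 33.2% exon overlap) and SHMT2 (-0.76 ± 0.12), which ATF4 also regulates. UMPS, of pyrimidine synthesis, rose by 0.62 ± 0.12, and with the block 3 members were higher. With solvent 4 of these 21 were higher and 4 lower (median 0.25), and 2 higher without starved library 2 or solvent library 1. Between C646 and solvent 0 of 21 passed by edgeR, with 12 lower at an unadjusted p under 0.05, 7 lower by DESeq2 and 9 lower with the replicate number as a block.

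Sterol synthesis genes fell as well. They are driven by SREBP2, which serum lipids hold in check. Of 31 tested, 17 were lower and 0 higher, with a median of -0.52. HMGCS1, the enzyme before HMG-CoA reductase, fell 3.03-fold, from 405, 350 and 430 CPM to 140, 135 and 116 CPM (log2 -1.60 ± 0.14, adjusted p = 1.3e-05). INSIG1, which retains SREBP in the endoplasmic reticulum, fell by 1.46 ± 0.21, and STARD4, a sterol carrier, by 1.62 ± 0.16. With solvent 19 were lower and 0 higher, and in C646 against solvent 0 of 31 passed by edgeR or by DESeq2 (2 at an unadjusted p under 0.05). The median of these genes turned to 0.21 when scaled on spike-in RNA, with 3 lower and 1 higher.

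**Figure D3:**
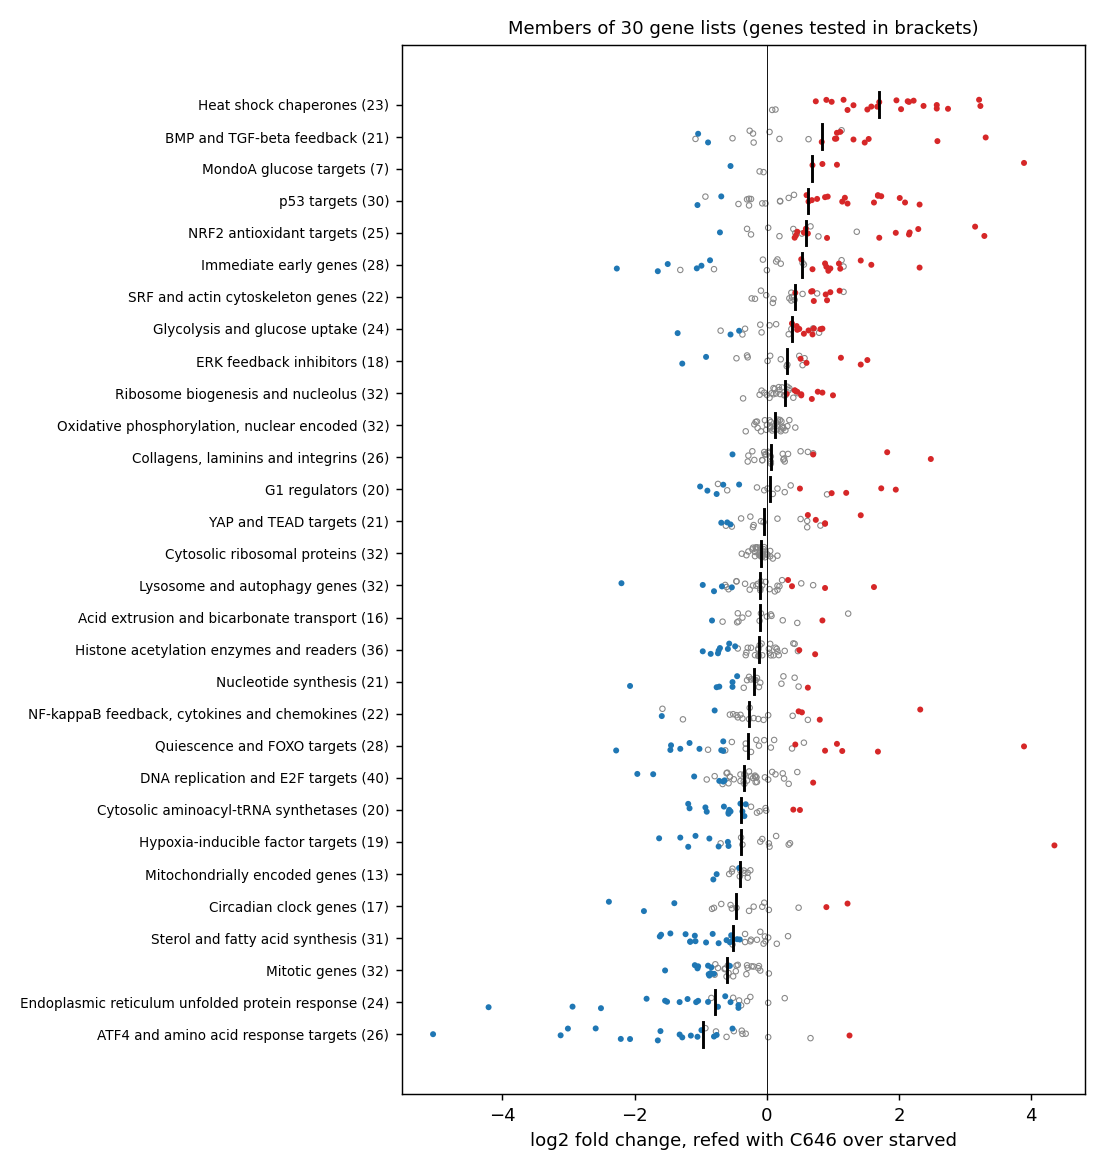
Log2 fold changes of list members in refed C646 over starved cells for 30 gene lists, ordered by their median (black bars). Filled points passed an adjusted p of 0.05 (red higher, blue lower) and open points did not. Heat shock chaperones have the highest median, 1.70, and ATF4 targets the lowest, -0.96.

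Heat shock chaperones had the highest share of called members among the 30 lists, 91.3%. HSF1 drives these genes when proteins unfold in the cytosol. Of 23 members tested, 21 were higher and 0 lower, with a median of 1.70. The count was 20 or 21 with any of the 6 libraries left out. HSPA4L, a nucleotide exchange factor for Hsp70, was at 26.5, 24.7 and 21.3 CPM in starved, 69.7, 71.1 and 64.3 CPM in solvent and 233, 176 and 262 CPM in C646 libraries. The 3 groups did not overlap. HSPA4L rose 9.23-fold over starvation (log2 3.21 ± 0.19, adjusted p = 1.1e-06) and was 3.27-fold higher than with solvent (log2 1.71 ± 0.18, adjusted p = 0.0012). DNAJA1, an Hsp40 cochaperone, went from 167, 153 and 175 CPM to 870, 814 and 862 CPM, a rise of 2.37 ± 0.14. It was 0.56 ± 0.14 above solvent, with an adjusted p of 0.066 and of 0.017 with the block. The stress-inducible Hsp70 genes HSPA1A (3.23 ± 0.52) and HSPA1B (2.74 ± 0.34) share 73.6% and 74.4% of their 31-base words with other genes, so reads may be divided between them. HSPA1B was at 238, 263 and 342 CPM in starved and at 1317, 2126 and 2201 CPM in C646 libraries. HSPA8, the constitutive Hsp70, rose by 1.16 ± 0.17 and stood at -0.01 ± 0.17 against solvent, with 21.4% of its 31-base words shared. The members that did not pass were HSF1 itself (0.13) and DNAJB6 (0.08), named because they were the exceptions.

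With solvent 18 of the 23 were higher and 0 lower (median 1.12). In C646 against solvent 3 were higher and 0 lower, with a median of 0.52 beside 0.011 over all genes. With the block this count was 14, and between 1 and 2 with any library of these 6 left out. Against DMA, where 2.89% of all genes were called, 15 of 23 were higher with C646 and 0 lower. This count was 7 without DMA library 3, and 9 without DMA library 1, without C646 library 1 or from the compared groups alone. The median log2 level of the list relative to the starved mean was 1.79, 1.66 and 1.62 in the C646 libraries, 1.00, 1.29 and 1.07 with solvent and 0.71, 1.13 and 0.68 with DMA. Each C646 library was above every other library. The DNAJA1 window (chr9:33025023-33025322, + strand), shown as that of a chaperone gene with narrow spread, holds a heat shock element (GAA, TTC and GAA with 2 bases of any kind in each gap), from base 4 of the transcript.
DNAJA1: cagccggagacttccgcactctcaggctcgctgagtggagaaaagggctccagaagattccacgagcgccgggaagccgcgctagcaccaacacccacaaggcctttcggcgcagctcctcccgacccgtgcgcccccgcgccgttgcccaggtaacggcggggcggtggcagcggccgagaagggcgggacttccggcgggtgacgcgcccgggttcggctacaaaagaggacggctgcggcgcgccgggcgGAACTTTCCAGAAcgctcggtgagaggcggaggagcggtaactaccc
This element was found in 0.49% of all windows and in 7 of 32 windows of the list (20 of 23 genes matched).

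Targets of NRF2, the factor that raises antioxidant and detoxification genes when KEAP1 is modified by electrophiles or oxidants, were higher in refed C646 cells. Of 25 tested, 14 were higher and 1 lower (median 0.59). AKR1B10, an aldo-keto reductase, was at 0.924, 0.879 and 0.997 CPM in starved and at 8.99, 7.49 and 10.9 CPM in C646 libraries. It rose by 3.29 ± 0.35 (adjusted p = 4.4e-05) and was 2.32 ± 0.33 above solvent (adjusted p = 0.0071), where it held 1.16, 2 and 2.34 CPM. It shares 30.7% of its 31-base words with other genes. SRXN1, which repairs peroxiredoxins, rose by 2.29 ± 0.40 (84.9% of words shared), and AKR1C1 by 3.15 ± 0.83 (35.7% shared, adjusted p = 0.016, lost without starved library 1 (0.052) or 2 (0.066) or C646 library 3 (0.057)). NFE2L2, the gene of NRF2 and the member that fell, was at -0.71 ± 0.11 and at 0.00 with spike-in scaling, with 20.9% exon overlap. The count of higher members was 7 without starved library 1, 5 without starved library 2, 9 without C646 library 1 and 8 without C646 library 3. The antioxidant response element (TGAC and GC with 3 bases of any kind between) was also searched in the promoter windows. It was found in 13.3% of all windows and in 6 of 24 windows of this list (19 of 25 genes matched).

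HMOX1, heme oxygenase, had the largest difference between C646 and solvent among the named genes. Its CPM were 157, 98.4 and 291 in starved, 26.9, 28.5 and 44.7 in solvent and 309, 269 and 825 in C646 libraries. It did not pass against starvation (1.36 ± 0.47, adjusted p = 0.052), and it was 3.81 ± 0.52 above solvent (adjusted p = 0.0076). Without solvent library 1 that adjusted p was 0.059. With solvent 0 members of the NRF2 list were higher and 6 lower than in starved cells (median -0.17), and 3 lower without starved library 1 or solvent library 1. The share called with solvent, 24%, was near the 24.3% of all genes, so that count is no result about the list. In C646 against solvent 7 were higher and 0 lower (median 0.83). This count was 18 with the block, 1 without solvent library 1, 3 without solvent library 2 or C646 library 1, 4 without C646 library 3, and 12 with the block and without solvent library 1. Against DMA 13 of 25 were higher and 0 lower, and 22 with the block. That count was 5 without DMA library 2, 6 without DMA library 1 or C646 library 1 or 3, 8 without C646 library 2 and 7 from the compared groups alone. The median level of the list relative to the starved mean was 0.60, 0.41 and 0.64 in C646 libraries, -0.24, -0.01 and -0.03 with solvent and -0.23, -0.20 and 0.00 with DMA.

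**Figure D4:**
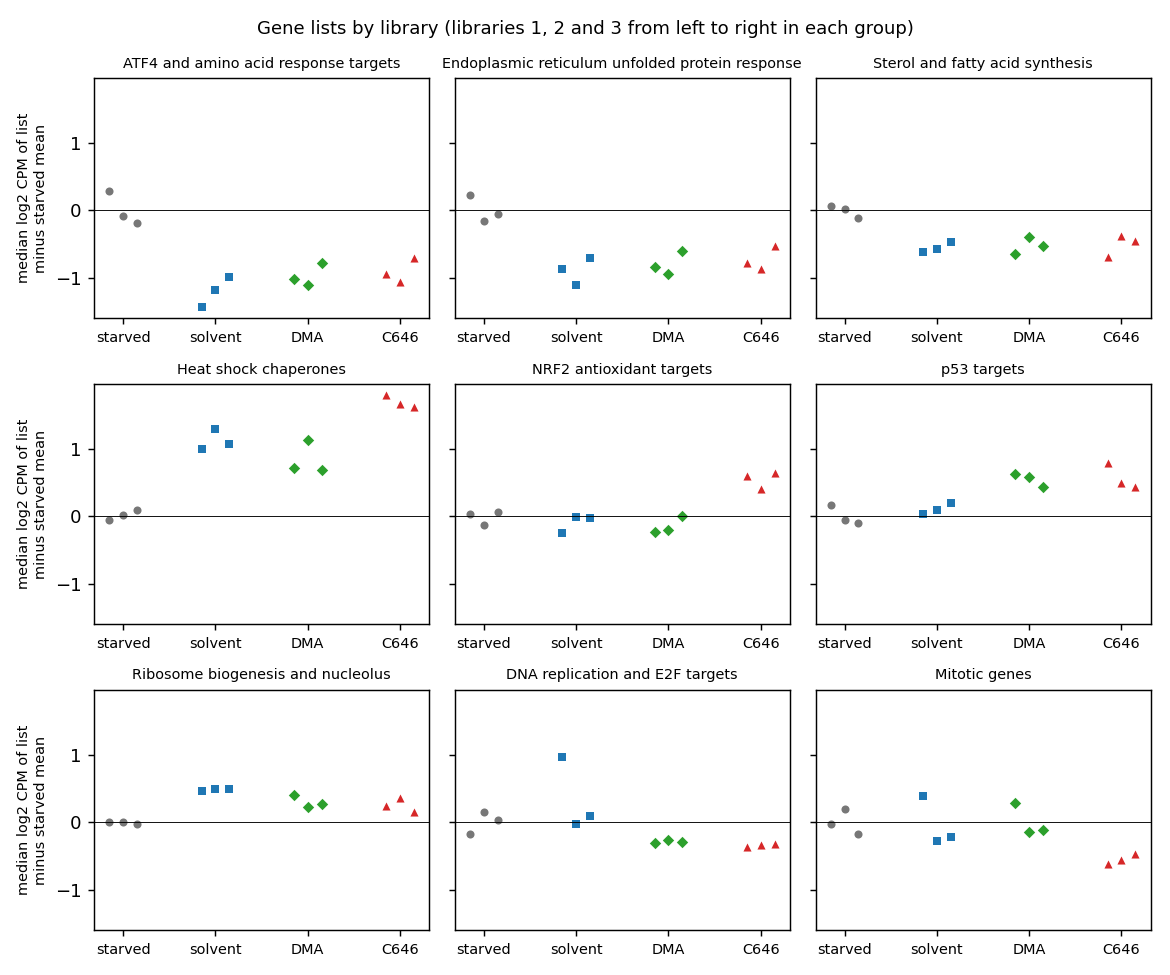
Median log2 CPM of 9 gene lists in each of the 12 libraries, relative to the mean of the starved libraries (vertical axis), by group (horizontal axis). The C646 libraries are highest for heat shock chaperones (1.62 to 1.79) and NRF2 targets (0.41 to 0.64) and lowest for mitotic genes (-0.61 to -0.47). Solvent library 1 stands at 0.96 for DNA replication genes.

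Targets of p53 rose more often than they fell. Of 30 tested, 16 were higher and 2 lower, with a median of 0.62. CDKN1A, the inhibitor p21 of cyclin-dependent kinases, was at 387, 438 and 263 CPM in starved, 335, 364 and 528 CPM in solvent and 1456, 947 and 1219 CPM in C646 libraries. The starved and solvent values overlapped and the C646 values lay above both. CDKN1A rose 3.33-fold over starvation (log2 1.73 ± 0.22, adjusted p = 0.00016) and was 2.95-fold above solvent (log2 1.56 ± 0.22, adjusted p = 0.0074). DMA libraries held 1088, 957 and 929 CPM, and C646 against DMA was 0.28 (adjusted p = 0.56). MDM2, the ubiquitin ligase that degrades p53, rose by 2.01 ± 0.25, FAS, a death receptor, by 2.09 ± 0.17, and BTG2, an antiproliferative gene, by 2.31 ± 0.23. With solvent 7 of the 30 were higher and 6 lower (median 0.06), and 3 lower without starved library 1 or solvent library 1 or 2. Compared with solvent, 5 were higher with C646 and 0 lower, 13 higher with the block, and 1 higher without solvent library 1, solvent library 2 or C646 library 1 and 2 without C646 library 3. SESN2 (-1.05 ± 0.29) and CCNG1 (-0.69 ± 0.13) were the members that fell. SESN2, which ATF4 also controls, lost the call without starved library 1 (0.068) or C646 library 1 (0.069) or 2 (0.08), and CCNG1 stood at 0.02 with spike-in scaling. The list's level relative to the starved mean was 0.79, 0.49 and 0.43 with C646 and 0.63, 0.58 and 0.44 with DMA, and it was 0.04, 0.10 and 0.19 with solvent.

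Genes of quiescence and FOXO factors moved in both directions. Of 28 tested, 6 were higher and 9 lower (median -0.28). Lower were KLHL24 (-2.28 ± 0.35), the muscle atrophy ligase gene FBXO32 (-1.46 ± 0.26) and the insulin receptor gene INSR (-1.45 ± 0.18). Higher, beside TXNIP, were SESN1 (1.68 ± 0.23), a regulator of mTORC1, and TOB1 (1.14 ± 0.14), an antiproliferative gene. With solvent 2 were higher (1 without starved library 2 or solvent library 3) and 14 lower (median -0.62), and 4 members were higher with C646 than with solvent, 0 lower. That count was 9 with the block and 1 without solvent library 1 or C646 library 1. Among 17 circadian clock genes, 3 were lower and 2 higher with C646, 29.4% of the list beside 24.6% of all genes. The repressor gene NR1D1 (REV-ERB alpha) fell by 2.39 ± 0.39, from 19.4, 51.7 and 33.6 CPM to 7.29, 6.93 and 5.8 CPM, and NFIL3 fell by 1.86 ± 0.20. PER2 (1.22 ± 0.30) and CRY2 (0.90 ± 0.21), repressors of CLOCK and BMAL1, rose. With the block 6 clock genes were lower and 3 higher. Between C646 and solvent 0 of 17 passed by edgeR, with 9 at an unadjusted p under 0.05, 3 by DESeq2, and 7 higher and 1 lower with the block.

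Ribosome biogenesis genes, which make rRNA and assemble ribosomes in the nucleolus and include MYC targets, rose to a limited extent. Of 32 tested, 10 were higher and 0 lower with a median of 0.27, and 7 to 9 were higher with any of the 6 libraries left out. NOP16, a nucleolar protein gene, was at 26.5, 24.2 and 26.1 CPM in starved, 54.4, 57.7 and 65.1 CPM in solvent and 53.2, 47.6 and 36.3 CPM in C646 libraries. The C646 libraries lay between the other groups. It rose by 0.84 ± 0.15 with C646 and by 1.21 ± 0.15 with solvent. LYAR, a nucleolar growth regulator, rose by 0.77 ± 0.14 with C646 and by 1.22 ± 0.14 with solvent. PPAN had a log2 fold change of 1.00 ± 0.20, with 59.8% exon overlap. With solvent 23 of 32 were higher and 0 lower (median 0.47), and in C646 against solvent 3 were lower and 0 higher (median -0.26). That count of 3 was 9 with the block and 0 without solvent library 1 or C646 library 1, and 1 without solvent library 3 or C646 library 2 or 3. The 32 cytosolic ribosomal protein genes held a median of -0.09, and 0 passed by edgeR or DESeq2 (1 at an unadjusted p under 0.05). Their median was 0.61 with spike-in scaling, and 2 were lower with the block.

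Immediate early genes, the first to respond to growth factors, were measured at 4 h, when many are known to have returned towards their starting level. Of 28 tested, 11 were higher and 6 lower (median 0.53). IER5 rose by 1.58 ± 0.18, from 43, 27 and 31.4 CPM to 109, 79.9 and 114 CPM, and CTGF, a matrix protein gene also driven by YAP, rose by 1.42 ± 0.29. KLF4, a zinc finger factor, fell by 2.27 ± 0.34. EGR1 was at -0.06 ± 0.38. The calls for MYC and FOS did not hold when single libraries were left out. MYC was at 141, 205 and 109 CPM in starved and 105, 93 and 52.7 CPM in C646 libraries, and FOS at 6.82, 5.1 and 9.55 and at 2.73, 4.07 and 3.43 CPM. MYC (-0.86 ± 0.26, adjusted p = 0.03) lost the call without starved library 1 (0.051) or 2 (0.14) or C646 library 2 (0.051) or 3 (0.078). FOS (-1.06 ± 0.34, adjusted p = 0.037) lost it without starved library 1 (0.075) or 3 (0.13) or any C646 library (0.055 to 0.13). The count of lower members was 2 to 4 with any of the 6 libraries left out, lowest without C646 library 2. With solvent 7 of the 28 were higher and 5 lower (median 0.13). In C646 against solvent 2 were higher and 0 lower (median 0.27). That count of 2 was 3 with the block or by DESeq2, and 0 without solvent library 1 or 2 or C646 library 1.

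Among 18 feedback inhibitors of ERK signalling 5 were higher and 2 lower. DUSP7, an ERK phosphatase, rose by 1.52 ± 0.15 and SPRY4, a Sprouty inhibitor, by 1.42 ± 0.23. PHLDA1 fell by 1.28 ± 0.20 and ETV5 by 0.92 ± 0.11. DUSP6 (0.57 ± 0.25, with 40.5% exon overlap) did not pass. DUSP5, at 91.5, 94.4 and 90.4 CPM in starved and 119, 115 and 161 CPM with C646, was 0.51 ± 0.13 higher (adjusted p = 0.014, and 0.055 without C646 library 3). DMA libraries held 346, 420 and 382 CPM of DUSP5, and C646 stood at -1.54 against DMA (adjusted p = 0.00015). In all, 7 of the 18 were lower with C646 than with DMA and 0 higher. That count was 4 without DMA library 2 or 3 or C646 library 2 and from the compared groups alone, and 11 with the block. With solvent 4 of the 18 were higher and 3 lower than in starved cells (median 0.19). In C646 against solvent 0 of 18 passed by edgeR (median 0.18), and 2 were higher by DESeq2. Relative to the starved mean the list was at 0.73, 0.70 and 0.70 with DMA. It was at 0.12, -0.00 and 0.24 with solvent and at 0.27, 0.19 and 0.38 with C646.

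Cytoskeletal, YAP, BMP and matrix genes were examined as targets of mechanical and TGF-beta family signals. Of 22 targets of SRF, the factor that reads the actin pool, 8 were higher and 0 lower (median 0.42), 15 higher with the block, and 5 without C646 library 1. SRF itself rose by 0.96 ± 0.15 and ZYX, a focal adhesion gene, by 0.91 ± 0.16. With solvent 8 of the 22 SRF targets were higher and 0 lower (median 0.48). In C646 against solvent 0 of 22 passed by edgeR, with 3 at an unadjusted p under 0.05 and 1 by DESeq2. Of 21 YAP and TEAD targets 5 were higher and 3 lower. CYR61 rose by 0.88 ± 0.20. The lower ones were MYOF (-0.55 ± 0.13), DOCK5 and PTPN14, and these stood at 0.15, 0.10 and 0.03 with spike-in scaling. The count of lower YAP and TEAD targets was 1 without starved library 2 or C646 library 3, and 6 with the block. In the BMP and TGF-beta feedback list 10 of 21 were higher and 2 lower (median 0.83). With solvent 5 were higher and 1 lower (median 0.26). There 3 were higher without starved library 2 or solvent library 1 or 2, and 2 lower without starved library 3. The share called with solvent, 28.6%, was near the 24.3% of all genes, so that count is no result about the list. In C646 against solvent 2 of these 21 were higher and 0 lower (median 0.22), and 3 higher and 1 lower with the block. Beside ID3, ID1 rose by 2.58 ± 0.34, from 2.68, 2.18 and 1.57 CPM to 11.6, 14.9 and 12.6 CPM, and BAMBI, a decoy receptor, by 1.54 ± 0.21. BAMBI was also 1.28 ± 0.21 above solvent (adjusted p = 0.014, and 0.075 without solvent library 1). TGIF1, a corepressor of SMADs, fell by 1.04 ± 0.25, and the count of 2 lower members was 1 without starved library 1 or 2 or C646 library 2 or 3. Of 26 collagen, laminin and integrin genes 3 were higher and 1 lower, and 7 higher with the block. The share called, 15.4%, was below the 24.6% of all genes. COL6A3, a collagen VI chain, rose by 2.48 ± 0.32 and the integrin gene ITGA5 by 0.70 ± 0.14. LAMB1 (-0.52 ± 0.15) stood at 0.22 with spike-in scaling, and its adjusted p was 0.11 without starved library 1, 0.05 without starved library 3, 0.084 without C646 library 1 and 0.09 without C646 library 2.

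Among 22 NF-kappaB feedback, cytokine and chemokine genes 4 were higher and 2 lower with C646. With solvent 6 were higher and 0 lower (3 higher without starved library 2). The share called was 27.3% in each, near the 24.6% with C646 and 24.3% with solvent of all genes, so the counts are no result about the list. LIF, a cytokine of the interleukin 6 family, was at 80.3, 82.3 and 74 CPM in starved, 348, 453 and 504 CPM in solvent and 385, 437 and 361 CPM in C646 libraries. The refed groups overlapped, and LIF rose by 2.32 ± 0.14 with C646 and by 2.46 ± 0.14 with solvent. The monocyte chemokine gene CCL2 behaved otherwise, at 14.8, 12.2 and 20.9 CPM in starved, 50.6, 40.6 and 50.2 CPM in solvent and 13, 12.2 and 14.6 CPM in C646 libraries. With C646 it stood at -1.83 ± 0.34 against solvent (adjusted p = 0.027), a call lost without solvent library 1 (0.11) or 3 (0.058) or any C646 library (0.072 to 0.11). IL1B was at -1.59 ± 0.43 against starvation (adjusted p = 0.018), a call lost without starved library 3 (0.069) or C646 library 2 (0.066). Without starved library 3, 1 member of the list was higher, and 2 without C646 library 3. With the block 5 were lower.

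G1 regulators were divided. These genes control passage to S phase through cyclins D and E, their kinases and the E2F factors. Of 20 tested, 5 were higher and 5 lower (median 0.05), with 3 lower without starved library 1 or C646 library 1. CCND3, cyclin D3, rose by 1.95 ± 0.13, from 15, 19.5 and 15.5 CPM to 69.4, 64.2 and 60.2 CPM. SKP2, which marks p27 for degradation, rose by 1.20 ± 0.25, and CDKN1B, the gene of p27, fell by 0.76 ± 0.19. The fall of CDKN1B kept its call with any of the 6 libraries left out. With spike-in scaling 7 members of this list were higher and 0 lower (median 0.75), so no fall in it was called per unit of spike-in. CCND1 (0.27 ± 0.28) and CCNE1 (0.36 ± 0.36) did not pass. CCNE2, cyclin E2, was at 4.75, 2.59 and 5.27 CPM in starved, 41.8, 8.04 and 12.6 CPM in solvent and 3.48, 3.22 and 4.61 CPM in C646 libraries. It was -0.15 ± 0.51 against starvation and -2.47 ± 0.51 against solvent (adjusted p = 0.04), with 37.1% exon overlap. The latter call was lost without solvent library 1 (0.11) or any C646 library (0.089 to 0.15). CDC25A, the phosphatase that activates CDK2, was at 0.91 ± 0.32 (adjusted p = 0.054) with C646 and rose by 1.86 ± 0.32 with solvent, and the C646 libraries were -0.95 ± 0.31 against solvent (adjusted p = 0.14). E2F1 was at -0.90 ± 0.27 (adjusted p = 0.028) against starvation, and the adjusted p was 0.051 to 0.082 without each starved library or C646 library 1 or 2.

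Of 40 DNA replication genes and E2F targets tested, 6 were lower and 1 higher, with a median of -0.34. The share called was 17.5%, below the 24.6% of all genes, so the count is no result about the list. PCNA, the polymerase clamp, rose by 0.70 ± 0.16, from 54.4, 52.4 and 56.3 CPM to 106, 77.4 and 81.2 CPM. CDT1, a licensing factor of replication origins, fell by 1.96 ± 0.29, from 17.4, 21.8 and 12.5 CPM to 4.14, 5.6 and 3.56 CPM. PRIM1, a primase subunit with 21.6% exon overlap, fell by 1.72 ± 0.31. CDC6, which loads the replicative helicase, was at -1.10 ± 0.34 (adjusted p = 0.031), a call lost without starved library 1 (0.094) or 3 (0.065) or C646 library 1 (0.096) or 2 (0.093). Lower members numbered 3 without C646 library 1 and 4 without any 1 of the starved libraries. With solvent 5 were higher and 1 lower (median 0.44), but 2 higher and 3 lower without solvent library 1 (median 0.05), 11 higher without solvent library 2 and 3 higher without starved library 1. With the block and without solvent library 1, 3 were higher and 5 lower (median -0.01). In C646 against solvent 0 of 40 passed by edgeR, with a median of -0.72. At an unadjusted p under 0.05, 31 were lower, and 17 were lower by DESeq2, 13 with the block, 4 without solvent library 2 and 1 without solvent library 3. Solvent library 1 bore on this: relative to the starved mean the list was at 0.96 in it and at -0.03 and 0.09 in the other solvent libraries, against -0.37, -0.33 and -0.32 with C646. Without solvent library 1 the median against solvent was -0.38, and with the block in addition 1 was lower. Scaled on spike-in RNA, the median against starvation turned to 0.40, with 6 higher and 1 lower.

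Mitotic genes were lower relative to other genes. Of 32 tested, 11 were lower and 0 higher (median -0.60), and 19 were lower with the block. BUB1B, a spindle checkpoint kinase gene, was at 36.3, 50.2 and 49.6 CPM in starved, 55, 30.5 and 38.1 CPM in solvent and 19.5, 22.1 and 23.9 CPM in C646 libraries. It fell 2.08-fold (log2 -1.05 ± 0.21, adjusted p = 0.0028). CENPF, a kinetochore gene, fell by 1.54 ± 0.31 and TOP2A, the topoisomerase of dividing cells, by 1.09 ± 0.25. The count of lower members was 6 without C646 library 2 and 7 without C646 library 1 or starved library 1 or 2. With spike-in scaling 0 of 32 passed and the median turned to 0.12. With solvent 1 member was higher and 0 lower (median -0.02), 0 higher without any 1 of the starved libraries or without solvent library 1 or 3, and 1 was lower with C646 than with solvent, 9 with the block and 0 without solvent library 1 or any 1 of the C646 libraries. Against DMA 3 were lower and 0 higher, 9 with the block, 2 without C646 library 3 and 1 without any other library of these groups or from the groups alone. The BUB1B window (chr15:40160819-40161118, + strand) is shown as an example from this list, of a gene whose starved and C646 values did not overlap. It holds the cell cycle element CHR, TTTGAA, beginning 23 bases before the start.
BUB1B: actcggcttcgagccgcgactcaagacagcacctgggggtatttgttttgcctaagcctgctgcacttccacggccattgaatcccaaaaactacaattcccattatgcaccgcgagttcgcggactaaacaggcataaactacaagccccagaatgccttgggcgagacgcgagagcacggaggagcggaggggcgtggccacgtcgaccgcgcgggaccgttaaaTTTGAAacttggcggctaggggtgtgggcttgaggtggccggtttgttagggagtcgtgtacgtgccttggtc
This short element was found in 15.2% of all windows and in 20 of 36 windows of mitotic genes (26 of 32 genes matched).

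Glucose metabolism responded. Of 24 glycolysis and glucose uptake genes 10 were higher and 3 lower (median 0.38), and 9 were higher and 2 lower with solvent. With C646, 5 were lower with the block and 1 without starved library 2. LDHA, lactate dehydrogenase A, was at 303, 360 and 314 CPM in starved, 1040, 784 and 690 CPM in solvent and 675, 567 and 472 CPM in C646 libraries. It rose by 0.81 ± 0.18 with C646 and by 1.36 ± 0.18 with solvent, and C646 stood at -0.55 ± 0.18 against solvent (adjusted p = 0.13, and 0.017 with the block). PFKFB3, which makes an activator of phosphofructokinase, rose by 0.84 ± 0.13. The glucose transporter gene SLC2A1 fell by 1.35 ± 0.25, from 366, 560 and 630 CPM to 220, 253 and 137 CPM. HK2 (-0.55 ± 0.16) and SLC16A1 (-0.42 ± 0.14) stood at 0.17 and 0.33 with spike-in scaling. HK2 lost the call without starved library 1 (0.062) or 2 (0.097) or C646 library 3 (0.074), and SLC16A1 without starved library 1 (0.21) or 2 (0.058) or C646 library 1 (0.13) or 2 (0.14). Of 7 MondoA targets 4 were higher and 1, HK2, lower, the highest being TXNIP. ARRDC3, a relative of TXNIP, was at 1.06 ± 0.29 (adjusted p = 0.019, lost without starved library 1, 0.054, or C646 library 3, 0.073), and it was at -0.32 ± 0.29 with solvent. Of 19 targets of hypoxia-inducible factors 8 were lower and 1, ANGPTL4, higher (median -0.39, and 0.33 with spike-in scaling). VEGFA, the angiogenic growth factor, fell by 1.63 ± 0.33 and NDRG1 by 1.19 ± 0.22. The count of lower members was 5 without starved library 2, and 3 were higher with the block.

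Mitochondrial and lysosomal genes were called at shares of 0% to 28.1%, beside 24.6% of all genes. Of 32 nuclear genes of oxidative phosphorylation 0 passed by edgeR or DESeq2 (median 0.12), with 4 at an unadjusted p under 0.05. Of these genes 2 were higher and 1 lower with the block, and 7 were higher without starved library 3. Of 13 mitochondrially encoded genes 3 were lower (median -0.41), 0 without starved library 3 or C646 library 1, 1 without C646 library 3 and 5 without starved library 2. Starved library 3 had the highest share of mitochondrial transcripts, 4.14% beside 2.39% and 2.49% in the other starved and 2.12% to 2.34% in C646 libraries. Of 32 lysosome and autophagy genes 4 were higher and 5 lower, with 11 lower by the block. GLA, alpha-galactosidase, rose by 1.62 ± 0.18, and CTSL, cathepsin L, by 0.88 ± 0.11, from 60.8, 60.8 and 59.6 CPM to 112, 111 and 111 CPM. WIPI1, an autophagy gene with 28.1% exon overlap, fell by 2.20 ± 0.27. The count of higher members was 2 without starved library 1 or 2 or any C646 library, and the count of lower members 3 without starved library 2 or C646 library 1 or 3. With solvent 0 were higher and 13 lower. Of 16 genes of acid extrusion and bicarbonate transport 1 was higher and 1 lower, 12.5% of the list. SLC9A8, a sodium-proton exchanger gene, fell by 0.83 ± 0.15. SLC9A5 (0.84 ± 0.22, adjusted p = 0.014) was lost without starved library 2 (0.057), and with spike-in scaling 3 members were higher and 0 lower.

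The genes of the enzymes that C646 is known to inhibit did not pass against starvation. EP300 was at 104, 120 and 101 CPM in starved, 67.7, 81.5 and 82.9 CPM in solvent and 106, 111 and 90.9 CPM in C646 libraries. CREBBP was at 91.4, 116 and 85.1, 46.1, 60.9 and 56.8, and 84.8, 92.1 and 71.4 CPM. The C646 values of both genes overlapped the starved values and lay above every solvent value. The log2 fold changes over starvation were -0.08 ± 0.12 for EP300 (adjusted p = 0.67) and -0.24 ± 0.17 for CREBBP (adjusted p = 0.34). With solvent EP300 was at -0.49 ± 0.12 (adjusted p = 0.01, and 0.052 without starved library 2) and CREBBP fell by 0.84 ± 0.17 (adjusted p = 0.0036). In C646 against solvent EP300 differed by 0.41 ± 0.12 (adjusted p = 0.1, and 0.031 with the block) and CREBBP by 0.60 ± 0.17 (0.097, and 0.012 with the block). Of 36 genes of histone acetylation enzymes and readers 2 were higher and 8 lower (median -0.12), 27.8% of the list beside 24.6% of all genes. With solvent 2 were higher and 15 lower (median -0.32), 47.2% beside 24.3%. In C646 against solvent 1 was higher and 0 lower. With spike-in scaling 8 were higher and 0 lower with C646 (median 0.60), and 3 higher and 0 lower with solvent (median 0.28). Over all genes the median with solvent was then 0.596, so the fall of EP300 with solvent is relative to other genes. With the block 4 were higher against starvation, and 4 against solvent. HDAC1, a deacetylase, rose by 0.49 ± 0.10, SIRT6 was at 0.73 ± 0.25 (adjusted p = 0.047, and 0.065 to 0.16 without any 1 of the starved libraries or C646 library 1 or 2), and KAT6B, an acetyltransferase, fell by 0.85 ± 0.17. BRD3, a bromodomain reader, fell by 0.97 ± 0.22.

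Refeeding with C646 was set against refeeding with solvent to test which differences hold. In this comparison 185 genes passed, 124 higher (0.812% of the genes tested) and 61 lower (0.4%) with C646, and 2567 had an unadjusted p under 0.05. The count depended on the libraries. It was 1199 with the block, 891 by DESeq2 and 72 from the 2 groups alone. It was 25 without solvent library 1, 35 without C646 library 1 and 66 without C646 library 3, and 332 with the block and without solvent library 1.

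The genes higher with C646 than with solvent included several named above and a few others. PCLO, a presynaptic scaffold gene, was at 4.66, 5.06 and 6.2 CPM in starved, 4.35, 3.16 and 2.63 CPM in solvent and 31.8, 16.3 and 35.3 CPM in C646 libraries. It was 3.03 ± 0.41 above solvent (adjusted p = 0.0069) and 2.39 ± 0.40 above starvation. HKDC1, a hexokinase relative, was at 11.9, 7.53 and 6.13, 6.92, 6.95 and 8.2, and 36.6, 25.4 and 31.8 CPM in the same order, 2.09 ± 0.28 above solvent and 3.47 above DMA. SLC43A2 was 8.45-fold (3.08 ± 0.39, adjusted p = 0.0062), RNF150 2.50 ± 0.36 and ABHD3 1.54 ± 0.22 above solvent. The calls of PCLO, HKDC1, SLC43A2, RNF150, ABHD3, HSPA4L, AKR1B10 and CDKN1A against solvent held with any of the 6 libraries left out. TBX2 (2.65 ± 0.42, adjusted p = 0.013) did not pass without solvent library 1 (0.081). HSPA1A (2.31 ± 0.50, adjusted p = 0.049) did not pass without solvent library 1 (0.21) or 3 (0.11) or any C646 library (0.056 to 0.16). SH3TC1 (2.06 ± 0.40, adjusted p = 0.031) did not pass without solvent library 1 (0.15) or 2 (0.07) or C646 library 1 (0.096) or 3 (0.079).

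Lower with C646 than with solvent were, among others, FAM111B and CDCA7. FAM111B, a protease gene of the cell cycle, was at 5.54, 4.06 and 5.13 CPM in starved, 65.8, 13.5 and 19.3 CPM in solvent and 5.96, 4.92 and 7.26 CPM in C646 libraries. CDCA7, a MYC and E2F target, was at 14.6, 10.6 and 13.3, 59.1, 18.7 and 25.9, and 11.6, 11.7 and 8.49 CPM. In both genes the C646 values lay near the starved ones and solvent library 1 was the highest of all. The differences from solvent were -2.44 ± 0.49 for FAM111B (adjusted p = 0.036) and -1.70 ± 0.36 for CDCA7 (adjusted p = 0.04). ZNF367 (-2.09 ± 0.39, adjusted p = 0.027) and WDR76 (-1.92 ± 0.40, adjusted p = 0.04) were also highest in solvent library 1, and their C646 values lay below every starved and solvent value. FAM167A was at -1.61 ± 0.31 (adjusted p = 0.03) and MB21D2 at -1.52 ± 0.26 (adjusted p = 0.017). Each of these calls was lost when a library was left out. Without solvent library 1 the adjusted p was 0.064 for FAM111B, 0.11 for CDCA7, 0.09 for FAM167A and 0.082 for MB21D2. Without any 1 C646 library it was 0.082 to 0.12 for FAM111B, 0.093 to 0.12 for CDCA7, 0.076 to 0.096 for ZNF367, 0.098 to 0.13 for WDR76, 0.079 to 0.11 for FAM167A and 0.05 to 0.054 for MB21D2. FAM167A was also lost without solvent library 3 (0.067).

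Against starvation, 5 genes moved in opposite directions in the C646 and the solvent group and also differed between these groups. These directions are relative to other genes. With spike-in scaling the median over all genes in solvent against starvation was 0.596, beside 0.003 without it. Falls with solvent no larger than this shift may not be falls per unit of spike-in. NRG1, the ligand of ERBB3 and ERBB4 receptors, was at 27.1, 23.2 and 20.2 CPM in starved, 14.7, 12.5 and 11.1 CPM in solvent and 39.5, 40.2 and 38.1 CPM in C646 libraries. The 3 groups did not overlap. It rose by 0.74 ± 0.16 with C646, fell by 0.88 ± 0.17 with solvent, and was 1.62 ± 0.17 higher with C646 than with solvent (adjusted p = 0.0012). MAP1A, a microtubule-associated protein gene, was at 62.5, 72.2 and 63, 31.5, 39.1 and 37.1, and 104, 97.9 and 115 CPM in the same order. It rose by 0.68 ± 0.13, fell by 0.88 ± 0.13 with solvent, and differed by 1.56 ± 0.13 (adjusted p = 0.0003). The 3 calls of NRG1 and of MAP1A held with any library left out. MAP2, PXDC1 and EPS8 had smaller changes, of 0.53 ± 0.18, 0.44 ± 0.15 and 0.34 ± 0.11 with C646 and -0.60 ± 0.18, -0.59 ± 0.15 and -0.36 ± 0.11 with solvent. Their calls against starvation were lost when single libraries were left out (adjusted p up to 0.2, 0.25 and 0.18, the highest without C646 library 1, 1 and 3). PXDC1 has 30.4% exon overlap.

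**Figure D5:**
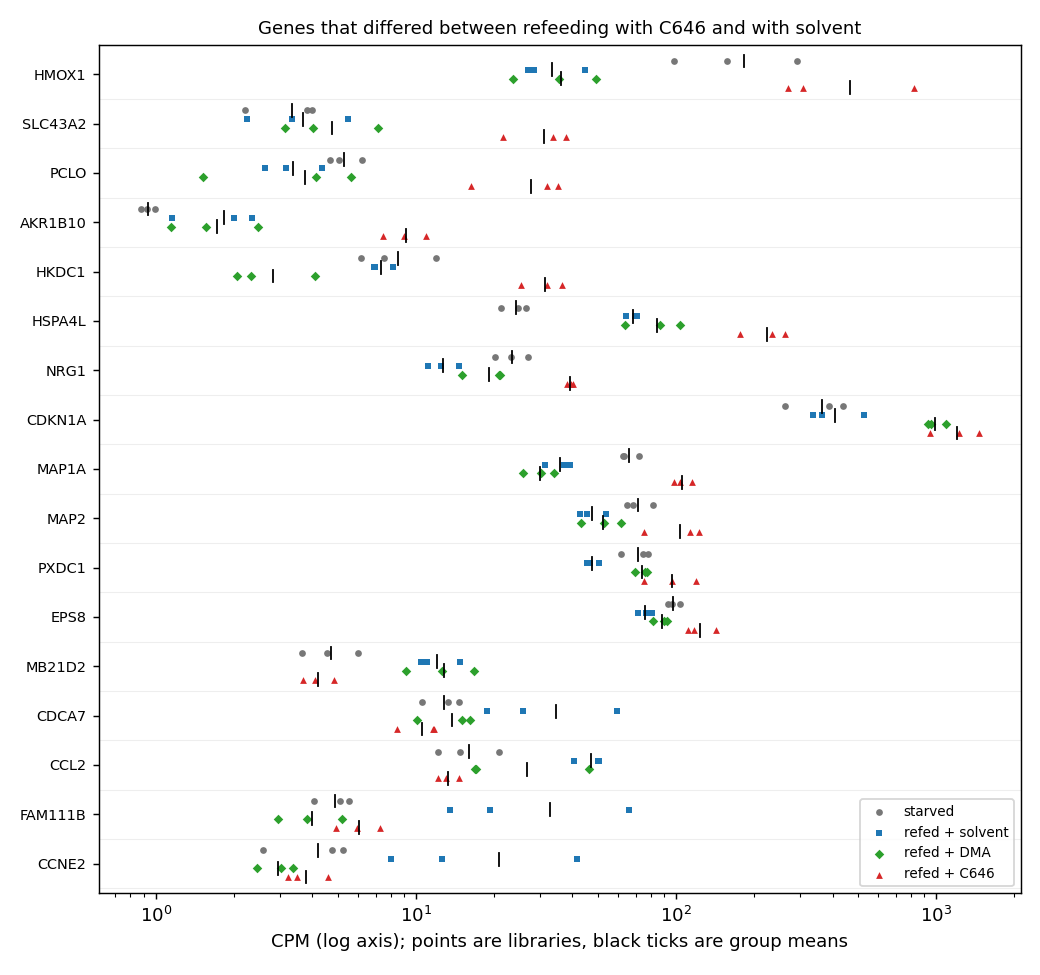
CPM on a log axis of 17 genes that differed between refeeding with C646 and with solvent, ordered by that difference from HMOX1 (3.81) to CCNE2 (-2.47). Points are the 3 libraries of each group and black ticks the group means. For CCNE2, FAM111B and CDCA7 the C646 points lie with the starved ones and 1 solvent library stands above the others, and for NRG1 and MAP1A the starved points lie between solvent and C646.

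Against refeeding with DMA, which served as a reference for another compound at 100 µM, 297 genes were higher (1.95% of the genes tested) and 144 lower (0.943%) with C646. HSPA4L (1.40, adjusted p = 0.0022), ABHD3 (2.19, adjusted p = 0.0008), GLA (1.34, adjusted p = 0.0026) and HMOX1 (3.69, adjusted p = 0.0045) were higher, and SPRY4 (-1.49, adjusted p = 0.0049) was lower. The compounds were given at different doses, so these are values side by side and not a comparison of potency.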

How the data were processed

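Poly(A) RNA of 12 RPE-1 libraries was sequenced after a TruSeq Stranded mRNA preparation, per the labels' protocols. The submitters' processing notes name Trimmomatic 0.36, STAR 2.7.0e and the build GRCh38.p10. Which program made the counts, with which annotation and strand setting, is not given in the sources used here. Per the file headers, the deposited tables hold expected counts, TPM and effective length per transcript. The expected counts the authors deposited were summed per gene (GENCODE 29) and rounded. The deposited TPM values were not tested, and effective lengths served as an offset in an alternative.

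Genes passed filterByExpr (minimum count 10, minimum total 15). All 12 libraries were fitted in edgeR 4.0.16 (R 4.3.3, limma 3.58.1) with TMM scaling and quasi-likelihood tests, and p-values were adjusted by Benjamini-Hochberg over all 15263 genes, with a threshold of 0.05. Alternatives were DESeq2 1.42.0, its size factors, other filters, only the compared groups, a replicate block, spike-in scaling, the length offset and each library left out. The procedure was tested on simulated data. No 2 replicates agreed within sampling noise.

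Same-numbered libraries deviated together: correlations of deviations from group means were 0.153, 0.365 and 0.336 for C646 and starved libraries and 0.284, 0.379 and 0.367 for C646 and solvent, so the numbers pair them. For solvent and starved libraries they were 0.0957, 0.33 and 0.182.

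Named genes were the 15 largest rises and falls against starvation, the 8 largest each way against solvent (mean log2 CPM of at least 2, groups not overlapping), up to 3 members each way of each of 30 lists, a panel of genes of interest, and genes moving in opposite directions with C646 and solvent. Genes sharing over 20% of 31-base words or exon sequence were called uncertain. The genes and lists were chosen with earlier results of these data known. Some panel genes are not reported here.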

Additional observations from a re-analysis of the deposited data

Results flagged for a closer look

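Relative to other genes, the effects of refeeding differed in direction between C646 and solvent for 5 genes. The difference itself was tested by edgeR in the C646 against the solvent libraries. As log2 fold changes of C646 over solvent, NRG1 stood at 1.62, MAP1A at 1.56, MAP2 at 1.13, PXDC1 at 1.03 and EPS8 at 0.70. All passed an adjusted p of 0.05. The calls of NRG1, MAP1A and PXDC1 held with any of the 6 libraries left out. MAP2 did not pass without solvent library 1 (0.075) or C646 library 1 (0.06), and EPS8 did not pass without solvent library 1 (0.075).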

How the results depend on the processing

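Of 152 named genes called against starvation, the replicate block and DESeq2 ended 0 calls, and 114 kept the call with any library left out. Spike-in scaling ended 37 and turned 11: SLC16A1 0.33, MT-ND3 0.29, ASNS 0.22, LAMB1 0.22, HK2 0.17, MYOF 0.15, DOCK5 0.10, PTPN14 0.03, CCNG1 0.02, IMPDH2 0.01 and NFE2L2 0.00. The cause was not tested.

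With a log2 change of at least 1, the counts of called genes were 1368 for C646 and 1177 for solvent against starvation, 90 for C646 against solvent and 185 for C646 against DMA. With libraries left out in turn the counts were 2523 to 3220, 2320 to 3452, 25 to 134 and 182 to 318 in the same order. The first comparison held 3749 calls, 4381 by DESeq2 and 5531 with the replicate block. C646 against solvent held 185 calls, 891 by DESeq2 (52.4% higher, against 67%), 348 with no filter, 72 from the compared groups alone, 100 with spike-in scaling (84% higher), 1199 with the replicate block and 332 with the block and without solvent library 1, an alternative chosen after seeing the data. C646 against DMA held 441 calls, 1044 by DESeq2, 130 from the compared groups alone, 1498 with the replicate block, 120 with spike-in scaling (55.8% higher, against 67.3%) and 280 with a transcript length offset. The cause of these differences was not tested, beyond fewer libraries in the fits that left some out. With 3 libraries a group, small differences between refed groups were not detectable in a stable way.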
